A study of Mus musculus with 1086 samples.

Results

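The WSB/EiJ strain (WSB) is an inbred mouse strain derived from wild house mice, and 1 of the 8 founder strains of the Diversity Outbred population. Liver RNA from 16 WSB males was taken by selecting every founder column labelled WSB: 8 males on the high fat diet and 8 on chow. They are 16 of the 128 founder males, in a series of 414 animals and 1086 sequencing records. All 16 were 26 weeks old, had free access to the assigned diet from 4 weeks of age, and gave snap frozen liver. The high fat diet is described as 45% of kcal from fat with 34% sucrose by weight, against 17% of kcal from fat in the control diet. The same protocol also gives 22% and 6% fat by weight, and which control diet the founders ate cannot be settled from it. No sucrose content is given for the control diet, so the effects of fat and sugar cannot be told apart. The other 7 strains (129S1, AJ, B6, CAST, NOD, NZO and PWK) had 8 males per diet, killed at 26 weeks except NZO, which were 20 weeks old.

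The liver handles dietary fat and sugar by several routes that respond to feeding. Sterols that arrive from the diet hold back the transcription factor SREBP2, which drives the enzymes of cholesterol synthesis. Glucose and insulin raise the enzymes that turn sugar into fatty acids, while fatty acids act through PPARα on oxidation genes and through PPARγ on storage genes. Liver also holds resident macrophages, and its hepatocytes express interferon-stimulated genes at a resting level and chaperones under the heat shock factor HSF1.

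Levels are given as count equivalents: the deposited values, which are scaled to the upper quartile of each library, times 1 constant that puts them near the scale of read counts. Fold changes are differences of log2(count equivalents + 1), with their standard error, from limma fitted to all 128 founder males. Adjusted p is Benjamini-Hochberg adjusted over the 13534 genes tested, and a gene passed at an adjusted p under 0.05. The + 1 understates the change of genes with low levels.

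The 16 WSB libraries held about 6.30 to 11.19 Mreads each (1 Mread is 1e6 recovered reads). The mean was 9.16 Mreads on high fat and 7.71 on chow. Median-of-ratios size factors ran from 0.988 to 1.015. They were taken on values already scaled to the upper quartile, so they do not show even depth. The median log2 diet difference over all genes tested was 0.00. Chow replicate 2 stood apart, at 79.2 on the first principal component, with chow replicates 3 and 1 next at 34.0 and 32 and the other 13 animals between -27.7 and 6.65. Its level of Lcn2, an acute phase gene, was 26982 against a chow median of 808. Chow replicate 2 also had the smallest of the 16 libraries, at 6.30 Mreads, and the fewest genes above 0 of all 128 founder males, 15038. The part of depth in the results was not tested. High fat replicates 2, 3, 4 and 6 have sample ids under 10000, while the other 4 high fat animals and all 8 chow animals have ids above 11000. The labels do not say what the id stands for. Counts of genes, and some of the named genes, are therefore also given without those animals. Of 63 reported diet changes that passed, 23 also passed without chow replicates 1 to 3. Without the high fat animals with ids above 11000, 30 passed, and without those with ids under 10000, 46 passed.

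High fat changed 718 of 13534 genes in WSB liver (5.31%), of which 411 were higher (3.04%) and 307 lower (2.27%) than on chow. Of these, 219 changed by more than 2-fold, 83 of them upward. In 50 genes all 8 high fat animals lay above all 8 chow animals (0.369% of genes tested), and in 69 genes they lay below (0.51%). Leaving out chow replicate 2 gave 480 genes, without chow replicate 1 there were 433 and without chow replicate 3 there were 466. Without all 3 of these chow animals 0.82% of the genes passed, and 96.4% of those were among the 718. No gene among the 718 took the opposite sign in any alternative.

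Among the gene lists examined, cholesterol synthesis genes were mostly lower, chaperones mostly higher, and interferon, macrophage and cell division genes held some of the larger decreases. The median log2 difference was -0.70 over 20 sterol genes, 0.76 over 20 chaperones, -1.19 over 10 cell division genes and -0.36 over 18 interferon genes. These stand beside 0.00 over all genes. The chaperone list was drawn up after its values had been seen, so its median describes the pattern and supports nothing. The other lists were chosen with earlier results of these data known.

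**Figure D1:**
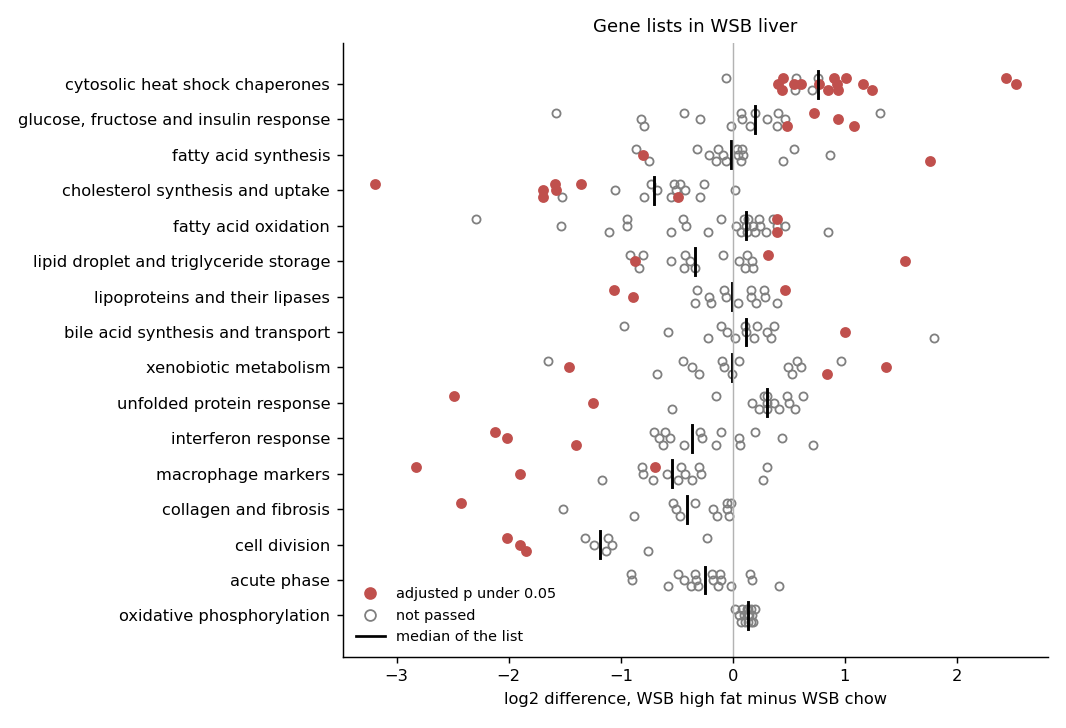
Each point is 1 gene and its horizontal position is the log2 difference between the 8 high fat and the 8 chow WSB livers, in 16 gene lists. Filled points passed the test at an adjusted p under 0.05, open points did not, and the black bar is the median of the list. Sterol genes lie to the left and chaperones to the right of 0. The chaperone list was drawn up after its values had been seen.

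Genes of cholesterol synthesis were lower on high fat at several steps of the pathway. Of 20 tested members, 7 passed as lower and 0 as higher, beside 2.27% of all genes called lower, and 19 of 20 had a negative difference. Sqle, the squalene epoxidase that commits carbon to sterols, ran from 8.91 over a median of 14.1 to 22.7 on high fat, and from 48.6 over 131.3 to 382 on chow. All 8 high fat animals lay below all 8 chow animals. The log2 difference was -3.19 ± 0.68 (adjusted p = 0.0010). Dhcr7, which makes the last step to cholesterol, ran from 92.7 over 125.98 to 182 on high fat and from 224 over 390 to 636 on chow. These groups did not overlap either, with a difference of -1.59 ± 0.29 (adjusted p = 0.00013).

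Further enzymes of the late pathway fell alongside. Cyp51, the lanosterol demethylase, fell by 1.70 on the log2 scale (adjusted p = 0.0099). Msmo1, the sterol methyl oxidase, fell by 1.69 (adjusted p = 0.0095), and Nsdhl, the dehydrogenase that acts after it, fell by 1.58 (adjusted p = 0.0070). Fdps, the farnesyl diphosphate synthase, and Srebf2, which encodes SREBP2 itself, fell by 1.36 and 0.49 (adjusted p = 0.035 and 0.029). Fdps missed the threshold when any 1 of 8 animals was left out (chow replicates 1, 2, 3 and 7 and high fat replicates 2, 5, 6 and 8, adjusted p 0.053 to 0.079). Srebf2 missed it without any 1 of 5 (chow replicates 2, 3 and 7 and high fat replicates 1 and 4, adjusted p 0.062 to 0.079).

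The other strains had a decrease as well. The median difference over the 20 genes was -0.70 in WSB and -0.97 in the other 7 strains. WSB minus those strains had a median of 0.20. Of the 20 genes, 0 passed the test of this difference, beside 1.74% of all genes, which does not show that the decreases are of equal size. In WSB the chow median of Sqle, 131.3, was below that of all 7 other strains, whose chow medians ran from 292 to 1028. Sqle passed as lower on high fat in 6 of the other 7 strains. A fit to the 16 WSB animals alone called 13 of the 20 sterol genes lower. Without chow replicate 2 the count was 5, without chow replicates 1 to 3 it was 1 (Dhcr7, adjusted p = 0.012), and without the high fat animals with ids above or under the gap it was 2 and 3.

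Several genes of sugar handling moved the other way. Of 19 tested genes of glucose, fructose and insulin response, 4 passed as higher (3.04% of all genes did) and 0 as lower, with a median log2 difference of 0.19. Ppp1r3b, a glycogen-targeting subunit of protein phosphatase 1, ran from 421 over 831 to 1642 on high fat and from 273 over 393 to 580 on chow. In 7 of 8 high fat animals Ppp1r3b was above all chow values, and it rose by 1.08 ± 0.29 (adjusted p = 0.013). Khk, the ketohexokinase that phosphorylates fructose, rose by 0.72 (adjusted p = 0.0049) and Pfkl, the liver phosphofructokinase, by 0.48 (adjusted p = 0.0028). The pyruvate kinase gene Pklr rose by 0.94 (adjusted p = 0.034) and missed the threshold without any 1 of 7 animals, chow replicates 1, 2 and 3 and high fat replicates 3, 4, 7 and 8 (adjusted p 0.055 to 0.14). Without chow replicates 1 to 3, or without the high fat animals with ids above 11000, 0 of the 19 passed.

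Fatty acid synthesis was not raised as a group. Of 18 genes 1 passed as higher and 1 as lower, beside 3.04% and 2.27% of all genes, and the median was -0.01. The gene that rose was Me1, the cytosolic malic enzyme that supplies NADPH to lipogenesis. It ran from 385 over 498 to 583 on high fat and from 72.8 over 152.01 to 291 on chow. The groups did not overlap, and Me1 rose by 1.76 ± 0.32 (adjusted p = 7.6e-05), and still by 1.56 without chow replicates 1 to 3 (adjusted p = 0.011). The chow median of Me1 in WSB was the lowest of the 8 strains, and its high fat median was above that of only 1 other strain. In the other 7 strains the change of Me1 was above 0 in 4 and passed as higher in 1. The mean change of the other 7 strains was 0.18 ± 0.12, and the difference between WSB and them was 1.58 ± 0.34 (adjusted p = 0.0025). That difference missed the threshold without chow replicates 1 to 3 (1.38, adjusted p = 0.074) and without the high fat animals with ids above 11000 (adjusted p = 0.060). Fads1, the desaturase that makes arachidonate, ran from 1060 over 1495 to 1726 on high fat and from 1724 over 2660 to 3404 on chow, with 7 of 8 high fat animals below all chow animals. It fell by 0.80 (SE 0.19, adjusted p = 0.0040). Fatty acid synthase, Fasn, differed by -0.75 ± 0.31 (adjusted p = 0.15), and Srebf1, the lipogenic regulator, by 0.87 ± 0.31 (adjusted p = 0.073).

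Cd36 and Mogat1, storage genes that rose on high fat in several other founder strains, did not pass in WSB, and for both the difference between WSB and the other strains passed. Of 17 genes of lipid droplets and triglyceride storage, 2 passed as higher and 1 as lower, beside 3.04% and 2.27% of all genes. The median was -0.34 against 0.26 in the other 7 strains. Cd36, the fatty acid translocase, ran from 191 over 283 to 365 on high fat and from 310 over 350 to 452 on chow. In 7 of 8 high fat animals it lay below every chow animal. The difference of -0.43 ± 0.28 did not pass (adjusted p = 0.42), while the other 7 strains gave a mean of 0.89 ± 0.11, and WSB differed from them by -1.32 ± 0.30 (adjusted p = 0.0069). Mogat1, a monoacylglycerol acyltransferase that PPARγ induces, stayed near 0, with 0 to 2.84 on high fat and 0 to 3.24 on chow. Its difference from the other strains, whose mean change was 1.77 ± 0.15, was -1.67 ± 0.42 (adjusted p = 0.015). Mogat1 reached the level needed for testing only through other strains, with high fat medians of 62.4 in NZO and 31.3 in B6. The difference sets a level near the floor in WSB against strains that express the gene, and does not test a diet response in WSB. The Mogat1 difference missed the threshold without chow replicate 2 (adjusted p = 0.055), without NZO (0.060), with limma-voom (0.23), and without the high fat animals with ids under 10000 (0.12) or above 11000 (0.088). The Cd36 difference missed it in the same splits by id (0.085 and 0.061). Cd36 and Mogat1 each passed as higher in 3 of the other 7 strains. The other 2 wild-derived strains were close to WSB in this. From chow to high fat the median of Cd36 went from 292 to 240 in CAST and from 268 to 290 in PWK. That of Mogat1 was 0 on both diets in CAST and went from 0 to 0.38 in PWK. The lack of a clear rise is therefore not particular to WSB.

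Other droplet genes gave a mixed picture. Cidec, a droplet fusion protein, differed by -0.84 ± 0.62 in WSB (adjusted p = 0.49), and Plin2, a droplet coat protein, by -0.43 ± 0.32 (adjusted p = 0.49). Fitm1, a membrane protein that promotes droplet formation, ran from 100.97 over 167.7 to 187 on high fat and from 37.2 over 49.1 to 73.4 on chow. Fitm1 did not overlap between diets and rose by 1.54 ± 0.30 (adjusted p = 0.00026). Its mean change in the other strains was 1.56 ± 0.11, and it passed as higher in 5 of those 7. Pnpla2, the adipose triglyceride lipase, ran from 412 over 483 to 882 on high fat and from 692 over 804 to 1957 on chow. Only high fat replicate 5 reached into the chow range, and Pnpla2 fell by 0.87 (SE 0.21, adjusted p = 0.0041).

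Of 27 genes of fatty acid oxidation 2 passed as higher, beside 3.04% of all genes, and 0 as lower, with a median of 0.12. Acaa2, the mitochondrial thiolase, ran from 5808 over 6110 to 6335 on high fat and from 2881 over 4735 to 5648 on chow. It did not overlap between diets and rose by 0.40 ± 0.11 (adjusted p = 0.012), but without chow replicate 2, its lowest animal, by 0.30 (adjusted p = 0.088). Cpt1a, which admits fatty acids into mitochondria, ran from 1854 over 2678 to 3614 on high fat and from 2568 over 3382 to 5140 on chow, with most animals in a shared range. Its difference was -0.44 ± 0.16 (adjusted p = 0.083) against 0.24 ± 0.06 in the other strains. WSB differed from them by -0.68 ± 0.17 (adjusted p = 0.015), or 0.062, 0.058 and 0.060 as adjusted p without chow replicate 1, high fat replicate 2 or the NZO animals, which were 20 weeks old.

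Among 16 lipoprotein genes 1 passed as higher and 2 as lower, 3 in all beside 5.31% of all genes, and the median was -0.0059. Apoa4, an apolipoprotein that rises with liver fat, ran from 6366 over 8783 to 13554 on high fat and from 6071 over 8067 to 15044 on chow. The 2 groups covered the same range, with a difference of -0.08 ± 0.31 (adjusted p = 0.93). In the other 7 strains Apoa4 rose by 1.19 ± 0.12 on average, a gap to WSB of -1.27 ± 0.33 (adjusted p = 0.025) that missed the threshold without any 1 of chow replicates 1, 5 and 6 (adjusted p 0.060 to 0.070) or without NZO (0.069). In bile acid handling, 1 of 15 genes passed, beside 5.31% of all genes. That gene, Abcc3, a basolateral exporter, rose by 1.00 ± 0.27 (adjusted p = 0.014). Cyp7a1, the rate-limiting enzyme of bile acid synthesis, ran from 113.5 over 725 to 1231 on high fat and from 6.47 over 256 to 629 on chow. Its spread within both diets was wide, and the 3.47-fold higher level on high fat did not pass (SE 0.87 in log2, adjusted p = 0.23).

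Interferon-stimulated genes held the differences with the smallest p-values. Ly6e, a membrane-anchored protein induced by interferon, ran from 145.1 over 226 to 321 on high fat and from 661 over 1292 to 2090 on chow. The highest high fat animal, at 321, lay far below the lowest chow animal, replicate 7 at 661. Ly6e fell by 2.44 on the log2 scale (SE 0.24, adjusted p = 2.2e-14), a 5.43-fold difference. Ifi27, an interferon-inducible protein of mitochondrial and nuclear membranes, ran from 230 over 282 to 352 on high fat and from 580 over 1125 to 1846 on chow. The groups did not overlap, and Ifi27 fell by 1.95 (SE 0.17, adjusted p = 3.0e-17). Both genes passed in every alternative run, with adjusted p of 4.4e-11 and 7.8e-14 when chow replicates 1 to 3 were left out.

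Of the 18 tested genes of the interferon list, which was written without Ly6e and Ifi27, 3 passed as lower, beside 2.27% of all genes, and 0 as higher. Oas1a, an oligoadenylate synthetase that senses double-stranded RNA, ran from 11.3 over 20.1 to 36.2 on high fat and from 41.6 over 90.9 to 196 on chow. No animals overlapped, and Oas1a fell by 2.02 (SE 0.30, adjusted p = 7.1e-07); near-identical Oas1 copies make the split of its reads uncertain. Usp18, the protease that removes ISG15 and damps interferon signalling, ran from 11.2 over 21.5 to 37.3 on high fat and from 27.04 over 117.4 to 190 on chow. High fat replicate 6 was the 1 animal in the chow range, and Usp18 fell by 2.12 (SE 0.40, adjusted p = 0.00016). Irf7, a transcription factor of the interferon response, ran from 61.5 over 92.5 to 122.96 on high fat and from 116.2 over 237 to 480 on chow. Irf7 overlapped by 1 high fat animal and fell by 1.40 (SE 0.27, adjusted p = 0.00028). Chow replicate 5 was the highest chow animal for Ly6e, Ifi27, Oas1a and Usp18, and chow replicates 7 and 8 were the lowest for these 4.

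**Figure D2:**
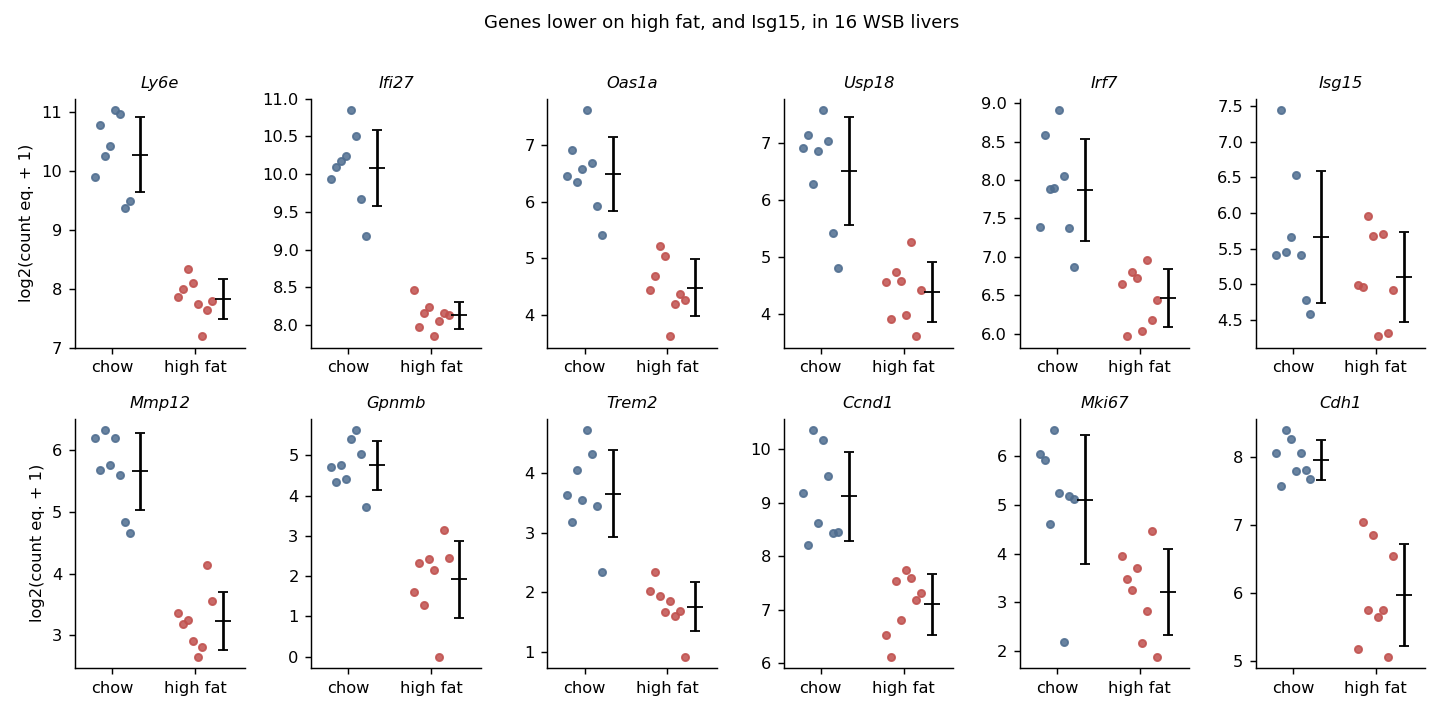
Each point is 1 WSB liver, in replicate order, with log2(count equivalents + 1) on the vertical axis and the diet on the horizontal axis; black bars show mean and SD of 8 animals. The diets separate completely for Ly6e, Ifi27, Oas1a, Mmp12, Gpnmb, Trem2, Ccnd1 and Cdh1, overlap by 1 animal for Usp18, Irf7 and Mki67, and overlap widely for Isg15.

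The other 15 interferon genes did not pass. Isg15, the ubiquitin-like modifier, ran from 18.3 over 30.5 to 61 on high fat and from 22.98 over 42.3 to 173.2 on chow. These ranges overlapped and the difference was -0.56 ± 0.42 (adjusted p = 0.50). Ifit1, an RNA-binding effector, did not pass either (adjusted p = 0.94). The list had 13 of 18 genes below 0.

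The promoters of a gene that fell and of one that did not are shown because both carry the interferon-stimulated response element core. RefSeq windows of the GRCm38.p6 build were matched for 15 of the 20 listed genes. The core was searched as GAAANNGAA on both strands in the 250 bases before each start, with overlapping matches counted. The 150 bases before the start follow, 5′ to 3′ along the gene, with matches in capitals; Oas1a lies at chr5:120907526-120907675 and Isg15 at chr4:156200819-156200968, both on the minus strand.
Oas1a: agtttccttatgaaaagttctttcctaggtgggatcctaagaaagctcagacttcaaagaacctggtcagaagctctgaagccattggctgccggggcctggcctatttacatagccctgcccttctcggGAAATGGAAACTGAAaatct
Isg15: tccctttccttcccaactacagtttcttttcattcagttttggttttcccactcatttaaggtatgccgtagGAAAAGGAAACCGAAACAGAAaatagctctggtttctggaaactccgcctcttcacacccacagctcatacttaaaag
Oas1a held 2 matches and Isg15 held 3, in both cases overlapping each other. Matches stood in 9 of the 15 genes, and in 7.13% of all 32851 start windows of the reference. Of the 9, only Oas1a passed the diet test, and Irf7, which also passed, had none in its window.

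The test of the difference from the other strains passed for all 5 of these genes, with the lower value in WSB. The mean change in the other 7 strains was 0.14 ± 0.09 for Ly6e and -0.32 ± 0.06 for Ifi27. The difference between WSB and those strains was -2.58 ± 0.25 for Ly6e (adjusted p = 8.9e-14) and -1.63 ± 0.18 for Ifi27 (adjusted p = 7.3e-12). It was -1.76 ± 0.32 for Oas1a, -1.89 ± 0.43 for Usp18 and -1.36 ± 0.29 for Irf7 (adjusted p = 0.00021, 0.0048 and 0.0025). Without the high fat animals with ids above 11000 Oas1a, Usp18 and Irf7 missed the threshold (adjusted p = 0.055, 0.13 and 0.081), as did Usp18 without chow replicates 1 to 3 (0.083), while Ly6e and Ifi27 passed. On chow, the WSB median of Ifi27 was above that of all 7 other strains (120 to 1007), though the WSB animals, from 580 to 1846, took in the range of NZO, from 776 to 1144. On high fat, the WSB median of Ly6e was below that of all 7 (370 to 5360). Levels across strains also depend on how reads of each strain were aligned, which was not tested.

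**Figure D3:**
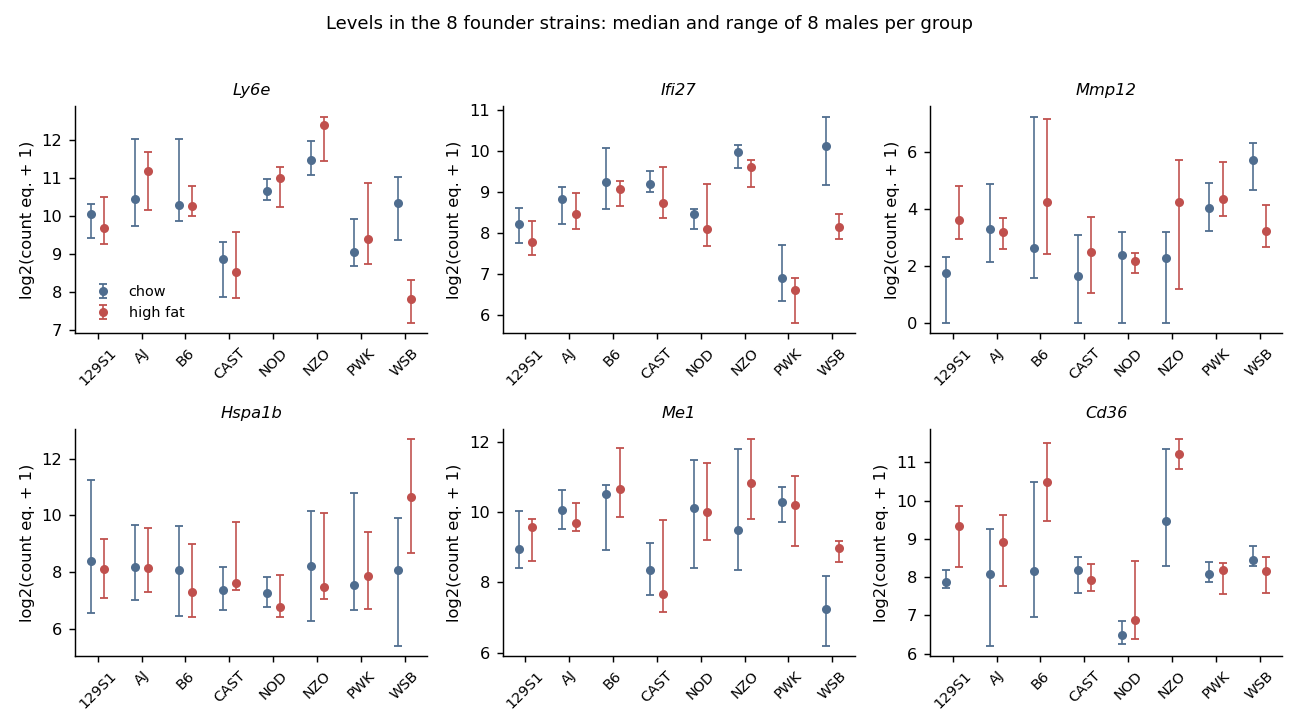
Points are medians and bars the range of 8 males per strain and diet, as log2(count equivalents + 1), for 6 genes across the 8 founder strains. WSB has the lowest median of Ly6e on high fat, the highest of Ifi27 (with a range that takes in that of NZO) and of Mmp12 on chow, the highest of Hspa1b on high fat and the lowest of Me1 on chow.

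A few genes that macrophages express were lower on high fat in WSB, while most macrophage markers did not pass. Mmp12, the macrophage elastase, ran from 5.30 over 8.29 to 16.7 on high fat and from 24.3 over 51.7 to 79.5 on chow. The diets did not overlap, and Mmp12 fell by 2.43 (SE 0.48, adjusted p = 0.00032). The other 7 strains had a mean change in the other direction, 0.98 ± 0.18, and WSB differed from them by -3.40 ± 0.51 (adjusted p = 1.8e-06). The WSB chow median was above those of all 7 other strains, which ran from 2.15 to 15.3.

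Of 16 macrophage markers, a list without Mmp12, 3 passed as lower (2.27% of all genes did) and 0 as higher, with a median of -0.54. Gpnmb, a glycoprotein of lipid-laden macrophages, ran from 0 over 3.76 to 7.81 on high fat and from 12.2 over 25.6 to 48.6 on chow. Trem2, a lipid-sensing receptor of the same cells, ran from 0.89 over 2.42 to 4.03 on high fat and from 4.05 over 11 to 25.4 on chow. Neither gene overlapped between diets, Trem2 by a narrow margin, and both are at low levels. Gpnmb fell by 2.83 (SE 0.63, adjusted p = 0.0018) and Trem2 by 1.90 (SE 0.44, adjusted p = 0.0028). The differences from the other strains were -3.24 ± 0.67 and -2.32 ± 0.47 (adjusted p = 0.0017 and 0.0014). The Gpnmb calls missed the threshold without the high fat animals with ids under 10000, and the Trem2 diet call without those with ids above 11000. Cd68, a general macrophage marker, fell by 0.69 (adjusted p = 0.022) and missed the threshold without any 1 of 6 animals, chow replicates 1, 3 and 5 and high fat replicates 1, 2 and 6 (adjusted p 0.051 to 0.11).

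Defining markers of resident macrophages did not pass. Clec4f, specific to Kupffer cells, differed by -0.49 ± 0.23 (adjusted p = 0.22) and Adgre1, which encodes F4/80, by -0.43 ± 0.27 (adjusted p = 0.39). The summed level of the 16 markers ran from 836 to 2536 on high fat and from 1496 to 2797 on chow. In whole liver, fewer cells of a type and less RNA per cell cannot be told apart. The fibrosis list had 1 of 14 genes past the threshold, beside 5.31% of all genes. That gene was Mmp12 itself, and the other 13, collagens included, did not pass.

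Genes of cell division were lower as well, with 3 of 10 passing as lower beside 2.27% of all genes, 0 as higher and all 10 below 0. Ccnd1, the cyclin that opens the cell cycle, ran from 68.7 over 151.7 to 213 on high fat and from 294 over 488 to 1309 on chow. It did not overlap and fell by 2.01 (SE 0.37, adjusted p = 0.00013), against a mean change of -0.13 ± 0.14 in the other strains and a difference of -1.88 ± 0.40 (adjusted p = 0.0025). Mki67, a nuclear protein of dividing cells, ran from 2.67 over 9.29 to 21.2 on high fat and from 3.55 over 36 to 92.4 on chow. Mki67 overlapped through chow replicate 6 alone near the bottom of the range, and fell by 1.90 (SE 0.49, adjusted p = 0.0087). This call was lost without the high fat animals on either side of the id gap and without chow replicates 1 to 3. The chow median of Ccnd1 in WSB, 488, was above those of all 7 other strains, but AJ was near it. The AJ chow median was 453, with animals from 208 to 800 in the WSB chow range for the most part.

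Chaperones of the heat shock response were higher on high fat. A list of 20 such genes was drawn up after their values had been seen, so its counts describe the pattern and support nothing. Of these 20, 15 passed as higher and 0 as lower, beside 3.04% of all genes called higher, and the median was 0.76. Hspa1b, an inducible HSP70, ran from 404 over 1596 to 6586 on high fat and from 41.1 over 269 to 966 on chow. Above every chow animal lay 5 of 8 high fat animals, with replicate 7 highest, while high fat replicates 4, 6 and 8 lay within the chow range. It rose by 2.53 ± 0.51 (adjusted p = 0.00044). Its neighbour copy Hspa1a rose by 2.44 ± 0.70 (adjusted p = 0.021), and without any 1 of chow replicates 2 and 3 and high fat replicates 1 and 7 missed the threshold (adjusted p 0.051 to 0.066). The 2 genes are near-identical copies, so how reads were split between them is uncertain.

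The rise covered cytosolic HSP90 and its helpers. Hsp90aa1, the inducible HSP90, ran from 2671 over 5243 to 11826 on high fat and from 1914 over 3239 to 3969 on chow, with 7 of 8 high fat animals above all chow animals. It rose by 0.93 ± 0.19 (adjusted p = 0.00039). Hsph1, the HSP110 exchange factor, ran from 982 over 2046 to 5086 on high fat and from 301 over 1098 to 1658 on chow, with the same separation of 7 animals. It rose by 1.24 ± 0.27 (adjusted p = 0.0012). Dnaja1, a J-domain co-chaperone of HSP70, ran from 2400 over 4043 to 6039 on high fat and from 1283 over 2381 to 3606 on chow. In Dnaja1 6 animals cleared the chow range, and the rise of 0.85 ± 0.15 (adjusted p = 4.6e-05) passed in every alternative run.

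Increases were also seen in other parts of the machinery. Dnajb1, another HSP70 co-chaperone, rose by 1.16 ± 0.24 (adjusted p = 0.00072), and the co-chaperones Stip1 and Fkbp4 rose by 0.77 and 0.93 (adjusted p = 0.00042 and 0.00088). Hsp90ab1 rose by 0.61 and the HSP90 activator Ahsa1 by 0.44 (adjusted p = 0.0040 and 0.0030). Dnaja4 rose by 0.90 (adjusted p = 0.012), or 0.70 without high fat replicate 7 (adjusted p = 0.069). The mitochondrial pair Hspd1 and Hspe1, HSP60 and its cofactor, rose by 0.40 and 0.44 (adjusted p = 0.0014 and 0.0084). Hsf1, which encodes the factor that drives these genes, differed by -0.07 ± 0.10 (adjusted p = 0.78).

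The stretch before the start of 2 chaperone genes is shown because it holds the inverted GAA repeat that HSF1 binds. The motif was searched in the same 250 bases as GAANNTTC and as TTCNNGAA, each its own reverse complement, and matches of the 2 can overlap. Hspa1b lies on the minus strand at chr17:34959239-34959388 and Hspe1 on the plus strand at chr1:55087998-55088147.
Hspa1b: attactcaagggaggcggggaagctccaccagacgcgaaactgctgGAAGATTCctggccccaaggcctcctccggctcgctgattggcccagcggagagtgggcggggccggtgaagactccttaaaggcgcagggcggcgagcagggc
Hspe1: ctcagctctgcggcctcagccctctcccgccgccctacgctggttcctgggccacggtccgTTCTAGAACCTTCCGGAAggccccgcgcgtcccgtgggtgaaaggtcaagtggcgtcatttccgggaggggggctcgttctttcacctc
Hspa1b held 1 match and Hspe1 held 3 overlapping ones. The Hspa1a window matched that of Hspa1b at 247 of 250 bases. RefSeq windows were matched for 15 of the 20 chaperone genes, and 9 of these held a match, against 12.8% of all start windows in the reference. Of 13 matched genes that passed the diet test 8 held one, while Dnajb1, Stip1, Bag3, Chordc1 and Ahsa1 did not. Several genes have more than 1 start in the reference, and all of their windows were searched.

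The chaperone rise followed individual animals within the high fat group. High fat replicate 7 was the highest of 8 for 17 of the 20 genes, and chow replicate 2 was the lowest for 12. In Hspa1b the 4 high fat animals with ids above 11000 had a median of 2527 and the 4 with ids under 10000 a median of 814. Without the former, the Hspa1b difference was 1.79 (adjusted p = 0.10) and 3 of 20 genes passed, and without the latter 16 of 20 passed. Leaving out chow replicates 1 to 3 also left 3 of 20, and without chow replicate 2 alone 13 passed. In a fit to the 16 WSB animals alone 4 passed. That fit takes its spread from the WSB animals, while the main fit pools it over all 16 strain and diet groups. The part of the id range in the chaperone rise was not tested.

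**Figure D4:**
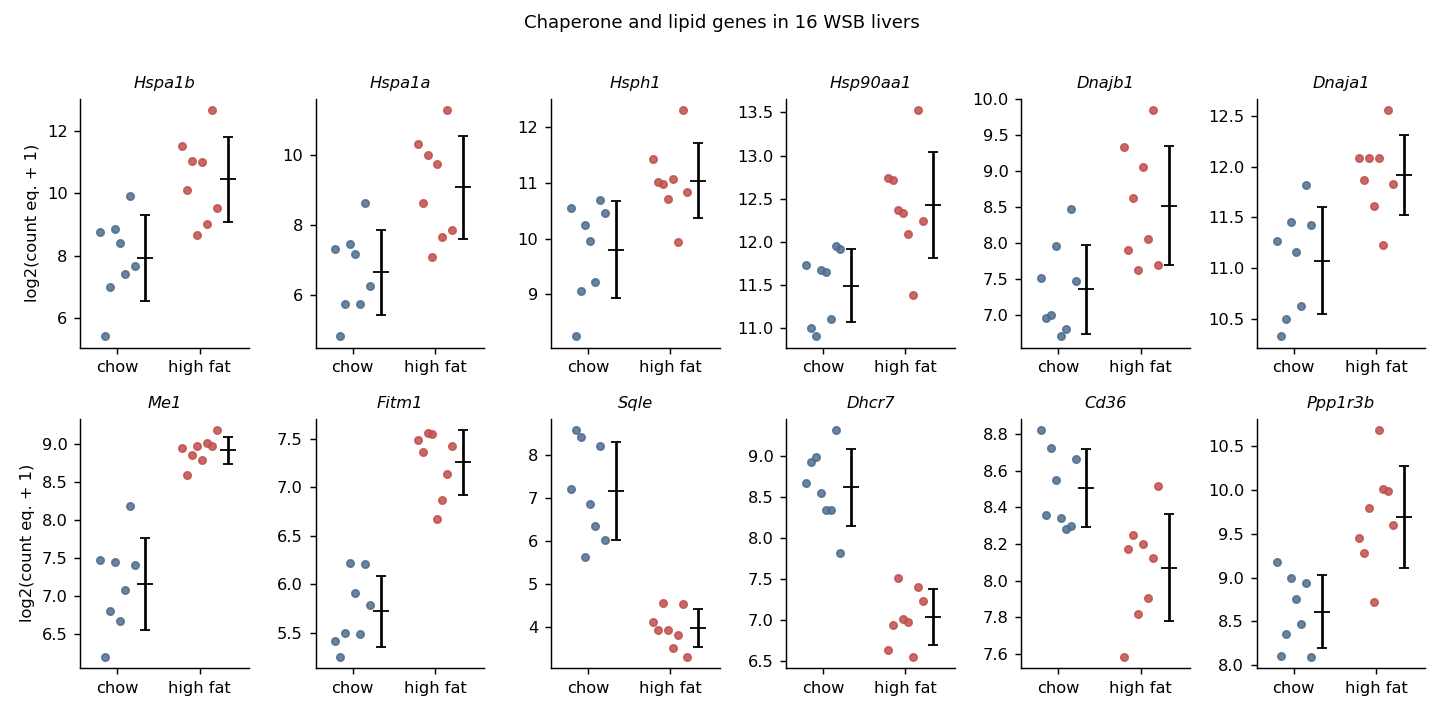
Each point is 1 WSB liver, in replicate order, as log2(count equivalents + 1), with mean and SD of 8 animals per diet as black bars. Hspa1b and its companions rise with a wide spread among high fat animals, whereas Me1, Fitm1, Sqle and Dhcr7 separate completely by diet.

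The difference from the other 7 strains passed for 11 of the 20 chaperones, all higher in WSB, beside 0.702% of all genes. The list was drawn up after its values had been seen, so this count supports nothing either. It was 2.74 ± 0.54 for Hspa1b (adjusted p = 0.00098), where those strains had a mean change of -0.21 ± 0.19, and 0.94 ± 0.20 for Hsp90aa1 (adjusted p = 0.0025). Stip1 differed by 0.85 ± 0.16 (adjusted p = 0.00056). Without the high fat animals with ids above 11000, 1 of these 11 differences passed, and without chow replicates 1 to 3 none did. In those settings Hspa1b had an adjusted p of 0.13 and 0.061, and Hsp90aa1 of 0.14 and 0.097. Hspa1a, Hsp90ab1 and Fkbp4 were lost without chow replicate 2 alone. The WSB high fat median of Hspa1b, 1596, was above those of all 7 other strains, which ran from 108.1 to 281. Of the genes of the unfolded protein response of the endoplasmic reticulum, 2 of 16 passed, both lower (2.27% of all genes did), while 12 of 16 were above 0 and the median was 0.30.

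Across all genes, the diet change in WSB differed from the mean of the other 7 strains for 235 of 13534 (1.74%). Of these 95 had the higher (0.702%) and 140 the lower (1.03%) value in WSB. The test was also passed by the diet change itself in 191 of them, 80 of which were higher on high fat. Without chow replicate 1 the share was 0.983%, without chow replicate 3 it was 1.03% and without high fat replicate 1 it was 1.09%. Of the 38 such differences among the genes reported, 32 passed without NZO, 28 without the high fat animals with ids under 10000, 9 without those with ids above 11000 and 10 without chow replicates 1 to 3.

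**Figure D5:**
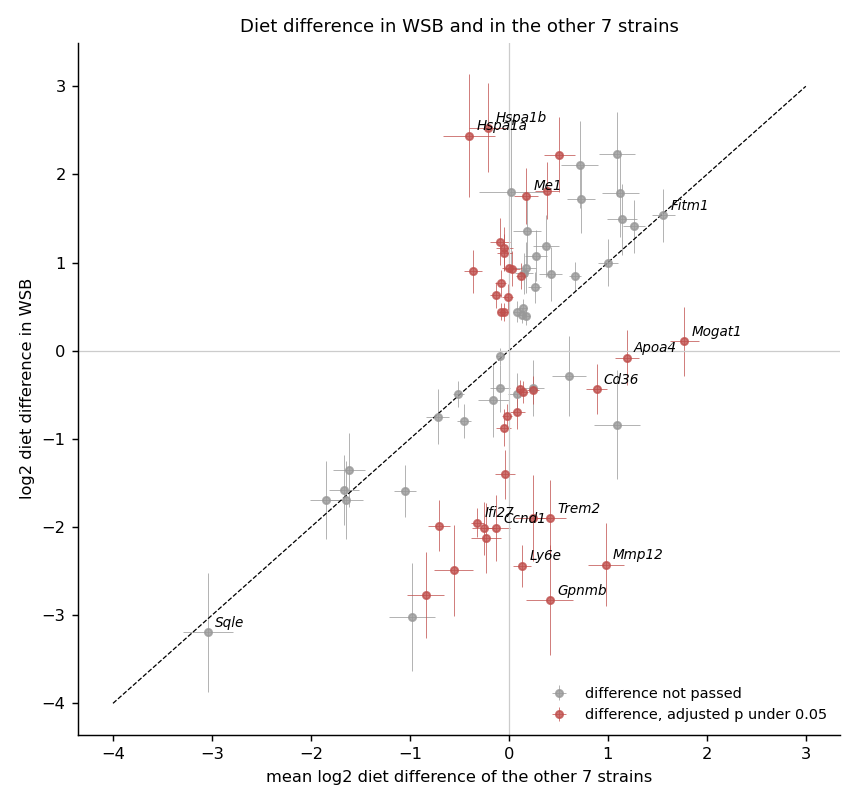
Each point is a gene named in the text, with the mean log2 diet difference of the other 7 strains on the horizontal and that of WSB on the vertical axis; bars are standard errors and the dashed line marks equal differences. Sterol genes and Fitm1 lie near the line, chaperones and Me1 above it, and Ly6e, Mmp12, Gpnmb and Trem2 below it.

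Among the larger decreases were several genes of unrelated roles. Asns, the asparagine synthetase induced by amino acid shortage, ran from 9.07 over 20.4 to 36.9 on high fat and from 67.6 over 110.99 to 233 on chow. Cyp17a1, a steroid hydroxylase with female-biased liver expression, ran from 9.80 over 20.52 to 60.1 and from 100.8 over 148.8 to 433. Neither gene overlapped between diets, and they fell by 2.49 and 2.77 (adjusted p = 0.00077 and 4.8e-05). Their differences from the other strains, each -1.93 (adjusted p = 0.043 and 0.031), missed the threshold without any 1 of 11 animals for Asns and any 1 of 6 for Cyp17a1 (highest adjusted p 0.096 and 0.094). Nipal1, a magnesium transporter, fell by 3.02 (SE 0.61, adjusted p = 0.00059) without overlap, from a chow median of 91.4 to 10.3. Cdh1, the E-cadherin of periportal hepatocytes, ran from 32.4 over 52.4 to 131.03 on high fat and from 189 over 245 to 335 on chow, also without overlap. It fell by 1.98 (SE 0.29, adjusted p = 6.0e-07). This fall was not limited to WSB: Cdh1 also passed as lower on high fat in 3 of the other founder strains. Its change was above 0 in 2 of them.

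Of 10 periportal markers 3, Cdh1 among them, passed as lower, beside 2.27% of all genes, and the median was -0.33. None of 9 pericentral markers passed, beside 5.31% of all genes called either way. The stellate cell list had 0 of 12 past the threshold, and the hepatocyte list 0 of 11. In lists this short, 0 is near the share over all genes, so these counts set no list apart. The summed level of the stellate markers ran from 2966 to 5109 on high fat and from 3556 to 5275 on chow.

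The larger increases included genes of several functions. Adgrv1, a large adhesion receptor, ran from 150 over 277 to 374 on high fat and from 25.9 over 57.9 to 91.7 on chow. It did not overlap and rose by 2.23 ± 0.48 (adjusted p = 0.0012). Slc17a8, a vesicular glutamate transporter, rose by 2.23 ± 0.43 (adjusted p = 0.00021), with 7 of 8 animals above all chow animals and replicate 2 below the rest. Col27a1, a fibrillar collagen chain, ran from 263 over 481 to 790 on high fat and from 84.5 over 138.3 to 309 on chow. All high fat animals but 1 exceeded the chow range, and Col27a1 rose by 1.82 ± 0.32 (adjusted p = 6.2e-05). Inmt, an indole methyltransferase, rose by 2.11 ± 0.49 (adjusted p = 0.0035) and Adam11 by 1.41 ± 0.30 (adjusted p = 0.0013). Aqp4, a water channel, rose by 1.49 ± 0.40 (adjusted p = 0.013), and Serpina12, the adipokine vaspin with male-biased liver expression, by 1.72 ± 0.38 (adjusted p = 0.0020). Without chow replicates 1 to 3, Adgrv1, Slc17a8, Inmt, Adam11 and Aqp4 missed the threshold (adjusted p 0.075 to 0.20). Col27a1 and Serpina12 passed in that setting (adjusted p = 0.0067 and 0.018).

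Enzymes of retinoid handling and a drug-metabolising enzyme also rose. Cyp26a1, which clears retinoic acid, rose by 1.79 ± 0.50 (adjusted p = 0.016), from a median of 37.8 on chow to 145.5. Its median was 248 in the 4 high fat animals with ids under 10000 and 87.7 in the other 4, and without the former the difference was 1.10 (adjusted p = 0.40). Aldh1a1, a retinaldehyde dehydrogenase, rose by 0.84 ± 0.17 (adjusted p = 0.00040). Cyp2c29, a drug-metabolising enzyme, ran from 5848 over 6935 to 8147 on high fat and from 1495 over 2298 to 4864 on chow. It did not overlap between diets and rose by 1.36 ± 0.38 (adjusted p = 0.016). Without chow replicates 1 to 3, Cyp26a1, Aldh1a1 and Cyp2c29 all missed the threshold (adjusted p = 0.24, 0.12 and 0.25).

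Markers of blood differed too. Alas2, the heme synthesis enzyme of red cells, ran from 201 over 280 to 351 on high fat and from 104.01 to 197 on chow. Its groups did not overlap and it rose by 0.88 ± 0.23 (adjusted p = 0.012), but missed the threshold without chow replicates 1 to 3 (adjusted p = 0.26). All 6 red cell markers tested were above 0, though Alas2 alone passed (5.31% of all genes did). Their summed level ran from 891 to 5415 on high fat and from 780 to 2960 on chow. Whether blood left in the tissue had a part in any result was not tested. Of 7 adipocyte markers, Adipoq, Lep, Plin1 and Retn were below the level needed for testing, as were 14 of 16 lymphocyte markers. Of the 3 adipocyte markers tested 1 passed, beside 5.31% of all genes. This was Car3, a carbonic anhydrase that liver also expresses. It ran from 11298 over 14705 to 20844 on high fat and from 2209 over 7250 to 14241 on chow. The groups overlapped, and Car3 rose by 1.19 ± 0.35 (adjusted p = 0.027), or missed the threshold without any 1 of chow replicates 3 and 6 and high fat replicate 2 (adjusted p 0.053 to 0.10). The summed adipocyte markers ran from 11329 to 20880 on high fat and from 2247 to 14260 on chow, and their part in other results was not tested. None of 18 acute phase genes, 16 oxidative phosphorylation genes or 10 sterol efflux genes passed, beside 5.31% of all genes.

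WSB was compared in the same way with the other 2 wild-derived strains. These comparisons use the same WSB animals as the results above. The diet change differed from that of PWK for 286 genes (2.11%), of which 52.8% were higher in WSB, although with limma-voom that share was 73.3%. It differed from that of CAST for 53 genes (0.392%), of which 39.6% were higher, or 55% with limma-voom. The PWK share was 0.961% without chow replicate 2, 1.4% without chow replicate 3 and 3.26% without chow replicate 4, and the CAST share was 0.621% without chow replicate 8. Ly6e differed by -2.66 ± 0.34 from PWK and by -2.34 ± 0.34 from CAST (adjusted p = 6.8e-09 and 1.0e-06), and Ifi27 by -1.53 ± 0.24 and -1.52 ± 0.24 (adjusted p = 3.2e-06 and 8.7e-06). Cdh1 differed by -2.10 ± 0.41 and -2.07 ± 0.41 (adjusted p = 0.0011 and 0.0026), although it also passed as lower on high fat in 3 founder strains other than WSB.

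Single genes marked each pair of strains. Scara5, a ferritin receptor, changed by 3.43 in PWK (adjusted p = 2.5e-08) and by -0.29 ± 0.46 in WSB (adjusted p = 0.80), a difference of -3.71 ± 0.64 (adjusted p = 8.0e-05). Eif4ebp1, an inhibitor of translation initiation, rose by 0.76 in PWK (adjusted p = 2.6e-05) and fell by 0.47 in WSB (adjusted p = 0.015, or 0.053 and 0.096 without chow replicate 1 or 2), a difference of -1.23 ± 0.18 (adjusted p = 1.1e-06). Me1 differed from CAST by 2.25 ± 0.45 and Oas1a by -2.12 ± 0.42 (adjusted p = 0.0026 for each).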

How the data were processed

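Polyadenylated liver RNA was sequenced with the TruSeq mRNA protocol, per the labels' protocols, with all founder libraries on 1 flowcell and 8 lanes that each held 1 male of every strain and diet. The submitters' processing notes name CASAVA 1.8.0, Bowtie 0.12.8, RSEM 1.2.1 and the builds NCBIM37 and mm9, without order. The founder table was deposited as a signal: estimated counts divided by the upper quartile of each library, which is 1 in every column. About 83.3% of low WSB values were whole numbers of reads within 0.1, so no count model served as the main test. Values were multiplied by 114.901, and genes with 10 or more in at least 8 founder males were kept, 13534 of 24965. limma 3.58.1 in R 4.3.3, with a mean-variance trend, was fitted to log2(value + 1) in 16 strain and diet groups with 112 residual degrees of freedom. The fit was tested on simulated data. GENCODE symbols were found for 22760 genes. Lane numbers did not pair the animals.

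The members and the gene lists were chosen with earlier results of these data known. Genes were named by a rule: up to 15 genes each way with the biggest change, if they passed and had a mean log2 level of at least 5, the 6 smallest p-values each way for differences between strains, the 4 smallest p-values of each list, and a fixed set of lipid genes; not all of these are described, and some genes are not reported here and were left out of the lists. The chaperone list was added after its values were seen, as were the named members beyond that rule. P-values measure the spread between animals. Promoter sequences are those of RefSeq for GRCm38.p6 and were not lifted to the authors' build. Alternatives covered scaling, pseudocount, filter, voom, a minimum fold, robust variances, lane, left-out animals, the WSB animals alone and the founders without NZO.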

Additional observations from a re-analysis of the deposited data

Results flagged for a closer look

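An animal lay apart from the other 7 of its diet in 8 instances among 77 genes and both diets, where chance marks about 1 in 20 such groups of 8. On high fat these were replicate 5 for Pnpla2 (882, next 556), replicate 7 for Hspd1 (7795, next 5335) and replicate 2 for Slc17a8 (70.6, next 199). On chow they were replicate 1 for Pnpla2 (1957, next 1057) and Cyp17a1 (433, next 193), replicate 2 for Acaa2 (2881, next 4381), replicate 4 for Srebf1 (980, next 403) and replicate 6 for Mki67 (3.55, next 23.4). All are count equivalents.

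The diet change differed between WSB and the mean of the other 7 strains for 38 of the genes reported, by limma's test of the difference. Values are WSB minus the other strains in log2. Lower in WSB among interferon, macrophage and cell division genes were Ly6e (-2.58), Ifi27 (-1.63), Oas1a (-1.76), Usp18 (-1.89), Irf7 (-1.36), Gpnmb (-3.24), Trem2 (-2.32), Cd68 (-0.78), Mmp12 (-3.40), Ccnd1 (-1.88) and Mki67 (-2.15). Lipid genes that were lower were Pnpla2 (-0.82), Cd36 (-1.32), Mogat1 (-1.67), Cpt1a (-0.68) and Apoa4 (-1.27). Mogat1 was near the floor in WSB on both diets and was tested only through its level in other strains. The Pnpla2 difference missed the threshold without any 1 of 6 animals or without NZO (adjusted p = 0.060), and that of Cd68 without any 1 of 6 animals. Other genes that were lower were Asns (-1.93), Cyp17a1 (-1.93), Cdh1 (-1.28), Arhgef5 (-0.72) and Fam83h (-0.55). The Asns difference missed the threshold without any 1 of 11 of the 16 animals and that of Cyp17a1 without any 1 of 6, or without NZO (adjusted p = 0.097). Chaperones that were higher were Hspa1b (2.74), Hspa1a (2.84), Hsph1 (1.33), Hsp90aa1 (0.94), Hsp90ab1 (0.62), Dnajb1 (1.21), Dnaja1 (0.73), Dnaja4 (1.26), Stip1 (0.85), Fkbp4 (0.90) and Ahsa1 (0.49). The remaining genes that were higher were Me1 (1.58), Slc17a8 (1.71), Col27a1 (1.43), Mbd1 (1.16), Rbbp4 (0.52) and Zfp141 (0.77). The Slc17a8 difference missed the threshold without any 1 of 5 animals, without NZO (adjusted p = 0.055) or with limma-voom (0.15). Of the 38 differences, 11 missed it without some 1 animal.

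Against PWK the same test passed for Ly6e (-2.66), Ifi27 (-1.53), Eif4ebp1 (-1.23), Scara5 (-3.71), Asns (-3.72), Cdh1 (-2.10), P4ha1 (1.59) and Rbbp4 (0.73). Against CAST it passed for Ly6e (-2.34), Ifi27 (-1.52), Oas1a (-2.12), Cdh1 (-2.07), Igsf8 (-1.17), Me1 (2.25) and Zfp141 (1.04). These 3 sets of differences share the WSB animals, so they are not independent of each other.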

How the results depend on the processing

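The share of tested genes that changed with diet, 5.31%, became 3.32% with limma-voom, 0.584% when a change beyond 1.2-fold was required, 2.0% without the 4 high fat animals with ids under 10000, 1.59% without the 4 with ids above 11000 and 0.82% without chow replicates 1 to 3. In the same order the 1.74% that differed from the other 7 strains became 0.938%, 0.281%, 0.658%, 0.414% and 0.414%. For PWK, from 2.11%, the last 4 of these settings gave 0.31%, 0.924%, 0.635% and 0.332%. For CAST, from 0.392%, the 5 settings gave 0.148%, 0.103%, 0.199%, 0.163% and 0.0813%, a pseudocount of 10 gave 0.628% (85 genes against 53), and no filter gave 0.324% of 24965 genes (81 genes). Leaving out 1 WSB animal at a time gave 3.2% to 6.78% for diet, 0.983% to 2.35% against the other 7 strains, 0.961% to 3.26% against PWK and 0.31% to 0.621% against CAST. Fewer animals also mean less power, so a lower share there is no measure of a weaker effect. The settings without the animals with ids above 11000 and without chow replicates 1 to 3 were chosen after seeing the data, as were all settings for PWK and CAST. The causes of these shifts were not tested.

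Of 63 diet changes that passed among the genes reported, 17 passed in all 30 alternatives and 54 without any 1 WSB animal. Of 38 differences from the other 7 strains, 5 passed in all 29 and 27 without any 1 animal. Of 8 differences from PWK and 7 from CAST, 6 and 3 passed in all 29. None of these calls reversed. Among genes that did not pass, the diet difference of Apoa4 became 0.14 without the animals with ids under 10000 and ran from -0.17 to 0.024 when 1 animal was left out, above 0 without any 1 of chow replicates 1, 5 and 6. That of Mogat1 ran from -0.058 to 0.31, below 0 without high fat replicate 3. With lane as a replicate block the counts were 718, 239, 281 and 55, and it ended none of the calls on reported genes. Lane pairing is not supported: 1 of 8 pairs correlated above 0.1, and 1 of 8 high fat animals correlated best with the chow animal of its lane. Genes with a few count equivalents, such as Gpnmb, Trem2 and Mogat1, are limited by depth.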
